A study of Mus musculus with 2 samples.

Results

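The Dlx and Msx homeobox genes were described in the hindbrain of mouse embryos at embryonic day 12.5 (e12.5). The members were the 6 Dlx genes, Dlx1 to Dlx6, and the 3 Msx genes, Msx1 to Msx3, found by their GENCODE symbol, and they are 9 of the 43346 Ensembl genes in each library. RNA was measured in 2 libraries of B6NCrl hindbrain tissue, one from a pool of 120 embryos (replicate 1) and one from a pool of 88 embryos (replicate 2), each holding males and females. No treatment or mutation is labelled, and both pools form 1 group. A p-value between them therefore compares 2 libraries and not 2 conditions. The libraries held 31633169 and 29766460 expected counts, estimates that divide shared fragments among genes. Levels are given in the TPM the authors deposited, a relative abundance corrected for transcript length. Values are the mean with its SD over the libraries (n = 2) unless a library is named. Coordinates are on mm10. The tissue is a bulk dissection, so fewer cells of a type and less RNA per cell cannot be told apart. Of 8 genes of hindbrain identity, 7 reached 1 TPM in both libraries, led by Meis1 (154 ± 16.7 TPM), Meis2 (115 ± 13.1) and Pbx3 (87.8 ± 1.97), and the exception was Egr2, at 0.90 and 1.23 TPM. The Hox genes of that list were Hoxd3 (61.95 ± 7.52 TPM), Hoxb2 (53.6 ± 8.66), Hoxa2 (51.3 ± 10.3) and Hoxb3 (13.85 ± 2.18).

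Dlx and Msx proteins are related homeodomain transcription factors descended from a common ancestral cluster. Msx proteins act mainly as repressors and are induced by bone morphogenetic proteins (BMPs), which the roof plate secretes along the dorsal midline of the neural tube. Dlx proteins act mainly as activators, and the genes lie in convergently transcribed pairs that share regulatory elements. Dlx genes are best known from the forebrain, where they drive GABAergic interneurons, and from the branchial arches, the ear and the skin.

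The homeobox, the stretch of 180 bases that encodes the DNA-binding domain, shows how alike the members are and whether fragments of one could be counted for another. It was read from the GENCODE M21 transcript of highest TPM in replicate 1 among those that hold it in their coding frame, and 8 members were compared. The homeoboxes of Msx2 and Msx3 are shown with those of Dlx5, the Dlx gene of highest level, and of Dlx2, which shares the longest run with an Msx gene. Capitals mark bases that differ from Msx2.
Msx2: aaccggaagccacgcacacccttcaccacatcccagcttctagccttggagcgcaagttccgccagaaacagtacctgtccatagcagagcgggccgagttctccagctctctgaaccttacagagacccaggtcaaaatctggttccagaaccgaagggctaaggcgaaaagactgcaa
Msx3: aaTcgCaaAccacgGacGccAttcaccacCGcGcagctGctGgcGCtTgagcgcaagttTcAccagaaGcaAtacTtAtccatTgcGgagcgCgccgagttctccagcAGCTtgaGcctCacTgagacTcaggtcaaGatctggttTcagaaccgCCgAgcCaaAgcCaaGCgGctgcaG
Dlx2: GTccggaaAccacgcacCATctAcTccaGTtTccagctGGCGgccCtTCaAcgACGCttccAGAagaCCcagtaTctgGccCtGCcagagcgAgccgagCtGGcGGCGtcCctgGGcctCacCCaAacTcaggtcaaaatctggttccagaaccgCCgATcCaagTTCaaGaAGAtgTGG
Dlx5: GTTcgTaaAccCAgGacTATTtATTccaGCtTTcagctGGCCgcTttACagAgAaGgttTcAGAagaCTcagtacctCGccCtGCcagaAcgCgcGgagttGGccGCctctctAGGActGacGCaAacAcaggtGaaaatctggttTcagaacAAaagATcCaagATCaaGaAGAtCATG
The homeobox of Msx2 lies in a single exon at chr13:53468370-53468549 on the minus strand, as does that of Msx3 at chr7:140047917-140048096 (minus). In all 6 Dlx genes it was split between exons. Msx2 was identical to Msx3 at 137 of 180 bases, to Dlx2 at 116 and to Dlx5 at 106. Across the 16 comparisons within a family identity ran from 66.1% to 81.7%, and across the 12 comparisons of Msx2 or Msx3 with a Dlx gene from 54.4% to 64.4%. The longest identical run between these members was 26 bases, in Dlx2 and Msx2.

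That run is far shorter than the span of 100 bases that the deposited effective lengths imply for a fragment. No stretch of 100 bases was shared between transcripts of any members, nor between 8 of the 9 members and any other M21 gene on either strand. The exception was Dlx1, where 239 of 5715 such stretches (4.18%) matched its antisense gene Dlx1as on the opposite strand. That share counts annotated stretches and not fragments. How much of the Dlx1 level could come from Dlx1as was not measured, with strandedness not given in the sources used here. Exons of Dlx4 overlapped those of the antisense gene Dlx4os by 79 bases, and exons of Dlx6 overlapped those of Dlx6os2 by 104 bases.

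The promoters of the Msx genes are shown because these were the members of highest level. Each runs from 250 bases before to 50 bases after the RefSeq start (GRCm38.p6), and capitals mark TAAT on either strand, the core sequence that most homeodomains recognise.
Msx1: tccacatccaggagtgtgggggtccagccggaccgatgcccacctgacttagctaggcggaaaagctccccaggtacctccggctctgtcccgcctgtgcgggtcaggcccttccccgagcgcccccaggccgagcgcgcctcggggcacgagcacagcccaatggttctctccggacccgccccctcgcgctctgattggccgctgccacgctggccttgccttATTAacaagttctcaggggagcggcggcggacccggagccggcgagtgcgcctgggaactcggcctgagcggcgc
Msx2: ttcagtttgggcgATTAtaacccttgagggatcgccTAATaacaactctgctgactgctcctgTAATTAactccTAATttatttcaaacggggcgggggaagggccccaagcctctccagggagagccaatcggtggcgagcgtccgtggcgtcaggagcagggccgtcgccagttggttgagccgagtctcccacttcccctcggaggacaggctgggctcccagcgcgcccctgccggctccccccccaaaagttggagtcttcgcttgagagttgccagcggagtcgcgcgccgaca
Msx3: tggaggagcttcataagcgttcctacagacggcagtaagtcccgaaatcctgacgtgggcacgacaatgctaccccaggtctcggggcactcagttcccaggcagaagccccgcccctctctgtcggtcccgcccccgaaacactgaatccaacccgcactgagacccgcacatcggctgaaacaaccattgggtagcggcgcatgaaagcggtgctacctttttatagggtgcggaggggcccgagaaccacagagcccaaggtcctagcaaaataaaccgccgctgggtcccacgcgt
They lie at chr5:37824536-37824835 (Msx1), chr13:53472731-53473030 (Msx2) and chr7:140049039-140049338 (Msx3), all on the minus strand. TAAT was present 5 times in Msx2, with overlapping matches on opposite strands counted separately, once in Msx1 and not in Msx3. In the background of 32851 promoters of the same length, 58.0% held it. The motif GGCGCC, a GC-rich sequence bound by Smad proteins, was in none of the 3 and in 11.9% of the background. TATAAA, the TATA box sequence, was in Msx3 alone of the 3 and in 13.6% of the background. Their GC content was 70.0%, 61.0% and 60.0% for Msx1, Msx2 and Msx3, against a background median of 52.7%. The promoter table matched 5 of the 9 members, and in Dlx1 and Dlx2, also matched, GC content was 69.3% and 66.3%, without a TAAT in either, and GGCGCC was present in Dlx2 and not in Dlx1. A match is a description of these letters and not a binding site.

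Msx transcripts were abundant and were led by Msx1. Msx1 (chr5:37820485-37824583, minus strand), a BMP-induced repressor also known from tooth and palate, measured 78.0 TPM in replicate 1 against 95.4 TPM in replicate 2, from 2712 and 3060 counts. Msx2 (chr13:53466884-53473074, minus), best known from skull growth and skin appendages, was at 49.1 and 52.7 TPM, from 2183 and 2162 counts. Msx3 (chr7:140046157-140049089, minus), whose expression in the mouse is known to be confined to the dorsal neural tube, was at 56.3 and 44.2 TPM, from 2195 and 1583 counts. Msx1 was above Msx2 and Msx3 in each library without overlap. The order of Msx2 and Msx3 was not resolved, since Msx3 was higher in replicate 1 and Msx2 in replicate 2. Ratios of TPM of Msx1 over Msx2 were 1.59 and 1.81, and of Msx1 over Msx3 1.38 and 2.16. By mean TPM, Msx1 stood above 85.8% of the 13520 protein-coding genes that reached 1 TPM in each library, Msx2 above 74.4% and Msx3 above 74.1%.

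Dlx transcripts were low. Over all transcripts a single gene carried most of the signal in each genomic pair, by the smallest margin in Dlx1 and Dlx2. Dlx5 (chr6:6877805-6882085, minus), a gene of the jaw, the ear and bone, was the highest at 8.61 and 15.2 TPM in replicates 1 and 2, from 213 and 351 counts. Its partner Dlx6 (chr6:6863334-6868568, plus), which acts with Dlx5 in the lower jaw, was at 0.84 and 2.14 TPM, from 24 and 42 counts. Dlx5 exceeded Dlx6 by 10.3 and 7.10 times in the respective libraries.

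Dlx1 (chr2:71528113-71533981, plus), a gene of forebrain interneurons, was at 6.81 and 8.15 TPM, from 241.5 and 293 counts. Its partner Dlx2 (chr2:71543408-71546754, minus), with a closely related role, was at 3.83 and 4.31 TPM, from 149 and 175 counts. Of the 3 pairs this was the most even, with Dlx1 over Dlx2 at 1.78 and 1.89 over all transcripts. In protein-coding transcripts alone the order was reversed, with Dlx1 at 1.71 and 1 TPM and Dlx2 at 3.16 and 4.19 TPM.

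Dlx3 (chr11:95120119-95125296, plus), a gene of epidermis, hair, tooth and placenta, was at 3.80 and 5.90 TPM, from 181 and 259 counts. Its partner Dlx4 (chr11:95140447-95146263, minus), a gene of the branchial arches, was the lowest member at 0.17 and 0.93 TPM, from 6 and 31 counts. The 95% Poisson intervals of the Dlx4 level, which cover counting error only, ran from 0.0624 to 0.370 TPM in replicate 1 and from 0.632 to 1.32 TPM in replicate 2. Dlx4 was thus above the value of 3 counts, 0.0836 and 0.0904 TPM at its length, but its lower bound in replicate 1 was not. Dlx3 over Dlx4 was 22.4 in replicate 1 and 6.34 in replicate 2, a ratio that rests on 6 counts in the first.

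Ordered by mean TPM over all transcripts the members ran Msx1, Msx2, Msx3, Dlx5, Dlx1, Dlx3, Dlx2, Dlx6 and Dlx4. In protein-coding transcripts alone Dlx1, at 1.71 and 1 TPM, lay below Dlx3 (3.80 and 5.90) and Dlx2 (3.16 and 4.19). Over all transcripts, library ranges overlapped between the neighbours Msx2 and Msx3, Dlx3 and Dlx2, and Dlx6 and Dlx4, and did not overlap between the other neighbours. A level of 1 TPM was reached in each library by 7 of the 9 members, and the exceptions were Dlx6 and Dlx4. By mean TPM, Dlx5 stood above 34.1% of the detected protein-coding genes, Dlx1 above 24.5%, Dlx3 above 17.2% and Dlx2 above 14.5%.

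**Figure D1:**
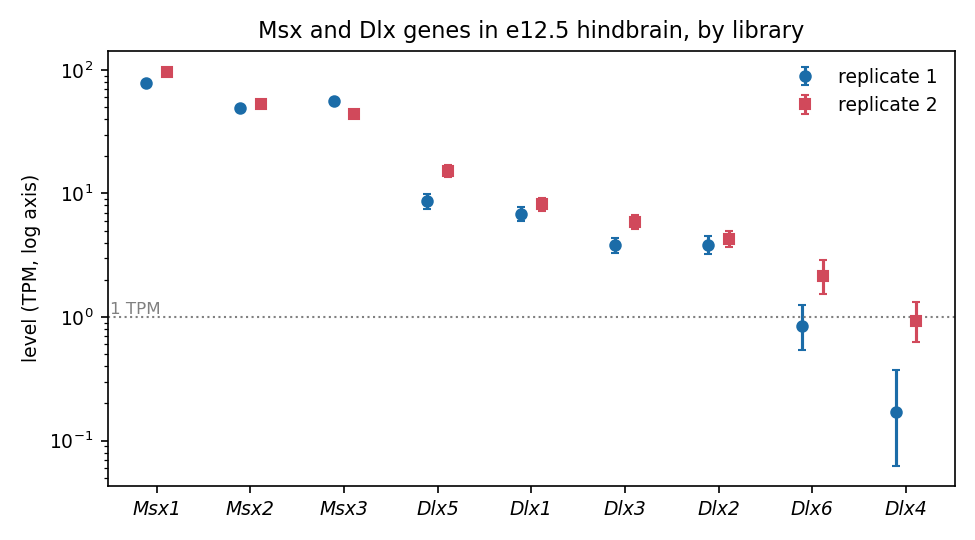
Level of each Msx and Dlx gene in TPM on a log axis, in order of mean level, where circles are replicate 1, squares replicate 2, bars are 95% Poisson counting intervals, and the dotted line is 1 TPM. All 6 Msx points lie between 44.2 and 95.4 TPM, and the highest Dlx point is Dlx5 in replicate 2 at 15.2 TPM.

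The summed Msx level exceeded that of every Dlx pair by more than 10 times in each library. The 3 Msx genes summed to 183 and 192 TPM in replicates 1 and 2. Dlx1 and Dlx2 summed to 10.6 and 12.5 TPM, Dlx5 and Dlx6 to 9.45 and 17.3 TPM, and Dlx3 and Dlx4 to 3.97 and 6.83 TPM. The Msx sum was 17.2 and 15.4 times that of Dlx1 and Dlx2, 19.4 and 11.1 times that of Dlx5 and Dlx6, and 46.2 and 28.2 times that of Dlx3 and Dlx4. On the log2(TPM + 1) scale, with sums taken first, the differences were 3.92 ± 0.10, 3.77 ± 0.53 and 4.92 ± 0.42 (SD, n = 2). Each difference was several times its spread between libraries. With 2 libraries the smallest p an exact two-sided sign-flip permutation can give is 0.5, so none was computed.

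In counts, not divided by length, the Msx genes held 7090 and 6805 and the Dlx genes 814.5 and 1151. The Msx genes made up 88.4% and 84.0% of the summed TPM of the members. The order of the Dlx1 and Dlx2 sum against the Dlx5 and Dlx6 sum was not resolved, as the former was higher in replicate 1 and the latter in replicate 2.

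Dlx1 stood out in its transcripts, since most of its abundance was assigned to forms annotated as retaining an intron. Protein-coding transcripts held 25.1% and 12.3% of the Dlx1 TPM in replicates 1 and 2. The retained-intron form Dlx1-206 held 37.9% and 46.0% and the retained-intron form Dlx1-203 held 37.0% and 41.6%. The only Dlx1 transcript with the whole homeobox in its coding frame, Dlx1-201, was at 0.46 and 0.68 TPM. Dlx1-201 and Dlx1-203 each share 335 exonic bases with Dlx1as, and Dlx1-206 shares none. Dlx1as itself was at 3.81 and 3.57 TPM, from 38.5 and 35.3 counts.

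Among the other members the homeobox-coding form led in most. Dlx2-201, at 3.16 and 4.19 TPM, held 82.4% and 97.0% of Dlx2. Dlx5-201 held 79.4% and 96.8% of Dlx5, the rest being Dlx5-202, whose annotated coding frame stops short of a whole homeobox. Msx1-201 held 95.2% ± 0.559 of Msx1 and Msx2-201 98.8% ± 0.219 of Msx2 (SD, n = 2). Msx3 differed from its relatives in using a pair of forms, Msx3-202 at 71.9% ± 1.62 and Msx3-201 at 28.0% ± 1.62. Msx3-201, at 16.4 and 11.9 TPM, does not hold the whole homeobox in its annotated frame. Dlx3 has a single annotated transcript. For Dlx6 the order of transcripts was not resolved, with Dlx6-203 at 53.4% and 33.0% and Dlx6-202 at 46.6% and 33.4%. A short retained-intron form, Dlx6-204, took 33.6% of Dlx6 in replicate 2 from 3.56 counts and 0% in replicate 1. The deposited shares of such low genes rest on a few fragments.

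**Figure D2:**
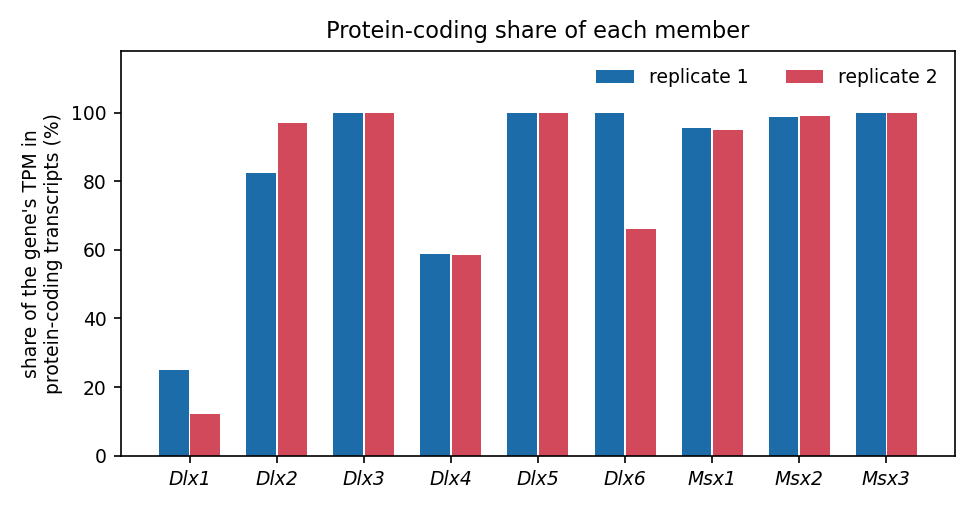
Share of each gene's TPM assigned to transcripts that GENCODE M21 annotates as protein-coding, in percent, with a bar for each library. Dlx1 is the lowest at 25.1% and 12.3%, and the 3 Msx genes lie at 94.8% or more.

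Antisense genes accompany all 3 Dlx pairs. Dlx6os1 (chr6:6820189-6871592, minus), a long noncoding RNA known from forebrain interneurons, was at 1.66 and 2.23 TPM, from 134 and 165 counts. It was 1.98 times Dlx6 in replicate 1 and 1.04 times in replicate 2. Dlx4os (chr11:95145052-95159047, plus) was at 0.27 and 1.61 TPM, from 8 and 44 counts. Dlx6os2 had 0 and 2 counts.

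Every Msx gene was higher than the nearest protein-coding gene on either side of it, while neighbours of the Dlx pairs lay above or below the pair. Sem1, 285 kb from the Dlx5 and Dlx6 locus, was at 163 ± 16.8 TPM, and Sdhaf3, 73.9 kb away on the other side, at 5.81 ± 0.778. Metap1d and Itga6, which flank Dlx1 and Dlx2, were at 28.2 ± 0.665 and 28.1 ± 1.36 TPM. Itga3 and Tac4, which flank Dlx3 and Dlx4, were at 6.87 ± 0.502 and 0.165 ± 0.0212 TPM. Msx1 was above its neighbours Cytl1 (5.84 ± 0.339) and Stx18 (35.9 ± 0.757), Msx2 above Sptlc1 (26.6 ± 0.735) and Drd1 (1.35 ± 0.247), and Msx3 above Zfp511 (28.9 ± 0.297) and Caly (15.6 ± 0.255). Within the pairs the genes lie 9.43 kb (Dlx1 and Dlx2), 15.2 kb (Dlx3 and Dlx4) and 9.24 kb (Dlx5 and Dlx6) apart.

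Between the pools, Dlx5 and Dlx4 were higher in replicate 2 by both tests used. Dlx5 measured 8.61 and 15.2 TPM and Dlx4 0.17 and 0.93 in replicates 1 and 2. On TMM-scaled counts, Dlx5 was 1.77 times as high in replicate 2 (95% counting interval 1.49 to 2.11), with an adjusted p of 1.2e-09 by the exact binomial test and 0.0201 by the edgeR exact test, which adds a dispersion between libraries. Dlx4 was 5.20 times as high (2.28 to 16.2), with adjusted p of 0.000151 and 0.00796 by the respective tests. Both tests compare these libraries only. By the binomial test, which allows for counting error alone, 5 of the 9 members were higher and 1 was lower in replicate 2, where 20.4% of the 19209 genes tested were called, 10.7% as higher and 9.68% as lower. By the edgeR test 2 members were higher and 0 lower, where 1.57% of genes were called, 0.942% as higher and 0.625% as lower. With spike-in scaling the binomial test called 2 members higher, Dlx4 and Dlx5, and 3 lower, Msx1, Msx2 and Msx3. Of the 19209 genes tested, 13010 were called under that scaling, 326 as higher and 12684 as lower, so most genes were called lower. Dlx1 (log2 ratio 0.014, adjusted p 0.958) and Dlx3 (0.25, adjusted p 0.107) did not pass under it. The other binomial calls were Dlx3 at 1.53 times (1.26 to 1.87), Dlx1 at 1.30 times (1.10 to 1.55), Msx3 at 0.774 times (0.725 to 0.826) and Msx1 at 1.21 times (1.15 to 1.28), the last reversing to a log2 ratio of -0.093 when libraries were scaled by spike-ins. None of these 4 passed once dispersion was added, with edgeR adjusted p of 0.264, 0.971, 0.763 and 1 in that order. Before adjustment the edgeR p was 0.00777 for Dlx3 and 0.0366 for Dlx6, and after it 0.264 and 0.658, above the threshold. Dlx2, Dlx6 and Msx2 were at 1.26, 1.86 and 1.06 times and passed neither test after adjustment. Spike-in scaling lowered the log2 ratio of the median gene by 0.37, and Dlx2 and Msx2 then came to -0.036 and -0.28. In TPM the Dlx6 ratio was larger than in counts, since its effective length, an average over transcripts, was 1506 bases in replicate 1 and 1124 in replicate 2. The median log2 ratio of the 9 members was 0.38, against -0.0019 over all genes tested, and ratios given here and in the marker lists are relative to that median gene. A log2 ratio between 0 and 0.37, a list's median included, turns negative under spike-in scaling.

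**Figure D3:**
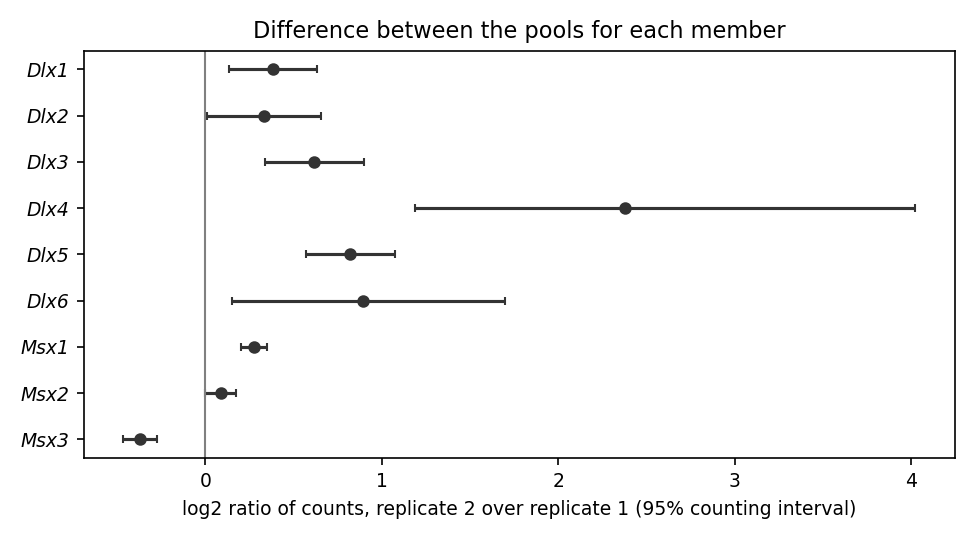
Log2 ratio of counts in replicate 2 over replicate 1 for each member, with 95% counting intervals. Dlx4 is furthest right with the widest interval and Msx3 lies left of 0 at -0.37, and Dlx2, Msx1 and Msx2, right of 0 here, lie left of it under spike-in scaling.

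Roof plate and dorsal genes were compared with the Msx genes because the roof plate is a main site of Msx expression. The part of the roof plate, or of tissues outside the neural tube, in the Msx levels was not tested. All 11 roof plate and dorsal midline genes reached 1 TPM, with summed levels of 107 and 95.01 TPM, below the Msx sum. Among the highest were Bmp7 (15.1 ± 0.460 TPM), a BMP ligand, and Zic1 (14.1 ± 0.658), and the roof plate ligand Gdf7 was lowest at 1.73 ± 0.226. By the binomial test 4 of the 11 were lower and 0 higher in replicate 2, and by the edgeR test 1 was lower, Lmx1a, the roof plate selector gene, at 13.3 and 8.32 TPM (adjusted p 0.0470). The median log2 ratio of the list was -0.19, and the log2 ratios of Msx1, Msx2 and Msx3 were 0.28, 0.09 and -0.37. Msx1 and Msx2 thus differed from the list's median in sign, except under spike-in scaling, where all 3 Msx genes were negative. Within the list Rspo1 (0.23) and Lmx1b (0.097) were positive too, and the others were negative. Neither Msx1 nor Msx2 passed the edgeR test.

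Components of BMP signalling were present throughout. All 14 BMP ligands, receptors and inhibitors reached 1 TPM, led by the receptor Bmpr1a (39.7 ± 1.42 TPM), Bmp7 and Bmp4 (12.6 ± 3.62), with the inhibitor Grem1 lowest at 1.17 ± 0.0566. Of these, 2 were called higher and 2 lower in replicate 2 by the binomial test and 0 by the edgeR test, with Bmp4 at 10.1 and 15.2 TPM the largest rise by the former. All 8 BMP response genes reached 1 TPM, led by Id3 (324 ± 33.3 TPM), Id2 (257 ± 6.82) and Id1 (128.5 ± 0.354), which encode inhibitors of bHLH factors, with Smad7 lowest at 5.17 ± 0.488. Of these 1 was called lower, Id3, and by the edgeR test 0. Of 10 dorsal hindbrain progenitor factors 9 reached 1 TPM, among the highest Neurog2 (37.6 ± 2.48) and Olig3 (35.6 ± 3.26), with Pax7 lowest at 1.08 ± 0.255. Of the 10, Pax3 and Olig3 were called lower by the binomial test and 0 by the edgeR test.

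Partners of Dlx genes in forebrain interneurons were unevenly present. Of 14 genes 12 reached 1 TPM in both libraries, led by Sst (85.8 ± 26.5 TPM) and Gad2 (43.5 ± 4.18). Nkx2-1, which marks the ventral forebrain, was lowest at 0.10 and 1.41 TPM. The binomial test called 8 higher and 1 lower in replicate 2. The edgeR test called 1 higher, Nkx2-1 (adjusted p 6.5e-08), and 1 lower. Lhx6, a target of Nkx2-1 in the forebrain, was at 1.10 and 2.18 TPM, with an edgeR adjusted p of 0.0850. The summed level of the list was 236 and 304 TPM. The median log2 ratio was 0.25. The part of forebrain tissue in the Dlx levels was not tested.

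Tissues outside the neural tube that use Dlx and Msx genes were also represented. Of 15 craniofacial and branchial arch genes 9 reached 1 TPM, with sums of 227 and 229 TPM, led by Tfap2b (71.3 ± 3.66), Prrx1 (66.7 ± 0.615) and Prrx2 (31.8 ± 0.184). Hand2, a branchial arch factor, was at 0 and 0.05 TPM. The binomial test called 4 higher and 1 lower in replicate 2, and the edgeR test called 1, Alx1, lower at 2.42 and 0.98 TPM (adjusted p 0.00389). Of 9 cartilage and bone genes 7 reached 1 TPM, with sums of 481 and 526 TPM, led by Col2a1 (387 ± 14.8), Col9a1 (84.2 ± 2.93) and Alpl (12.0 ± 1.27), and the mature bone gene Bglap was at 0 in both. The binomial test called 5 higher and 0 lower, and the edgeR test called 2 higher, Matn1 at 3.74 and 15.6 TPM (adjusted p 8.77e-16) and Acan at 2.36 and 6.37 TPM (5.55e-09), which encode cartilage matrix proteins. Dlx5 and Dlx4 were higher in the same library as Matn1 and Acan, and the part of cartilage in that result was not tested.

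All 8 skeletal muscle genes were called higher in replicate 2 by both tests, with sums of 54.0 and 253 TPM, led by Actc1 (27.4 and 112 TPM), Acta1 (8.06 and 38.0) and Myog (6.38 and 29.6), with Myf5 lowest at 0.53 and 2.30. Their median log2 ratio was 2.21, and the part of muscle-bearing tissue in the Dlx differences was not tested. All 8 meningeal and fibroblast genes reached 1 TPM, with sums of 1396 and 1807 TPM, led by Col3a1 (525 ± 110), Col1a1 (484 ± 98.5) and Col1a2 (353 ± 51.4), with Foxc1 lowest at 13.6 ± 0.325. Of the 8, 6 were higher and 1 was lower by the binomial test, and the edgeR test called 0. All 6 choroid plexus genes reached 1 TPM, led by Ttr (354 ± 42.8), Kcne2 (17.6 ± 4.43) and Otx2 (14.1 ± 2.32), with Folr1 lowest at 9.81 ± 0.799. Of the 6, 3 were called higher by the binomial test and 0 by the edgeR test.

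Otic and epithelial genes were lower in replicate 2 where most of them were called. Of 10 otic vesicle genes 9 reached 1 TPM, with sums of 397 and 219 TPM, led by the otoconial gene Oc90 (247 and 107 TPM) and Gata3 (45.4 ± 8.90), with Otol1 lowest at 3.25 and 0.72. In replicate 2, 7 were called lower by the binomial test and 4 by the edgeR test, with a median log2 ratio of -0.64. All 9 surface ectoderm and epithelial genes reached 1 TPM, with sums of 120 and 84.3 TPM, led by Epcam (33.0 and 16.4 TPM), Krt18 (20.8 ± 6.14) and Krt8 (20.5 ± 6.42), with Grhl2 lowest at 1.95 ± 0.304. The binomial test called 5 lower and 1 higher, Trp63, the epidermal selector gene, at 2.51 and 3.42 TPM, and the edgeR test called 1 lower, Epcam (adjusted p 6.77e-05). Dlx5, which acts in the otic vesicle, was higher in the library in which most markers called in those lists were lower. Dlx3, which acts in ectoderm, was higher there by the binomial test but not by the edgeR test (adjusted p 0.264) or under spike-in scaling (adjusted p 0.107), and the part of these tissues in either result was not tested. All 7 neural crest genes reached 1 TPM, with sums of 85.6 and 85.4 TPM, led by Ngfr (32.4 ± 1.36), Tfap2a (13.97 ± 0.212) and Sox10 (12.5 ± 4.08). The binomial test called 1 higher and 2 lower, and the edgeR test 1 lower, Sox10 (adjusted p 0.0455). Sox10 is also in the otic list and is among the 4 otic genes called by the edgeR test.

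**Figure D4:**
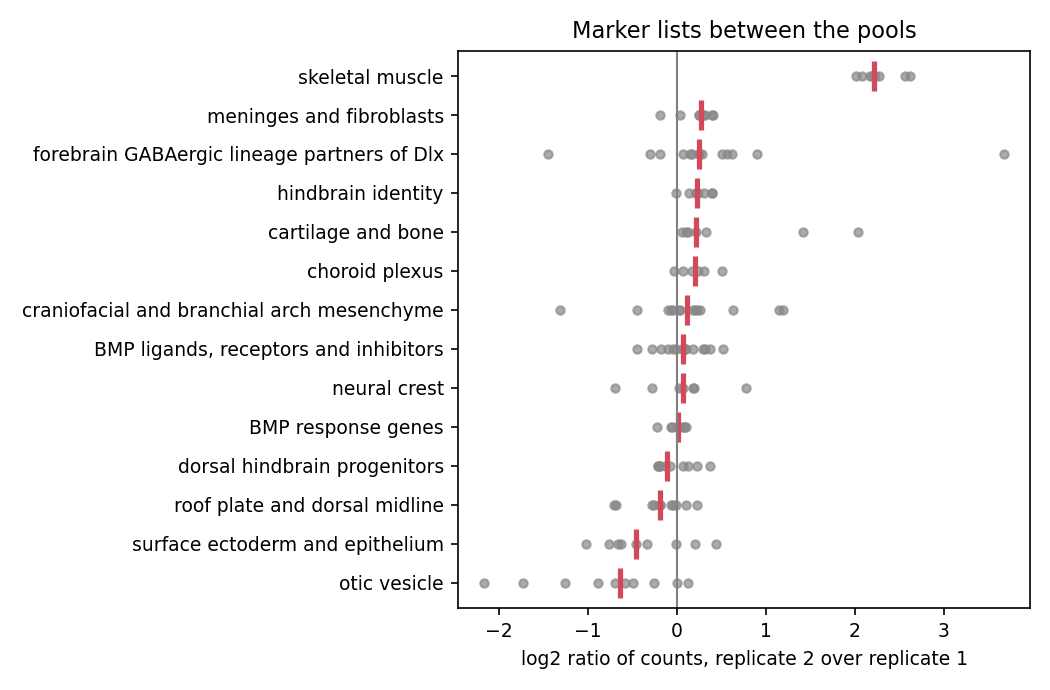
Log2 ratio of counts in replicate 2 over replicate 1 for the tested genes of each marker list, with 1 grey point per gene and a red bar at the list's median. Skeletal muscle lies furthest right, with a median of 2.21, and the otic vesicle furthest left, at -0.64.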

How the data were processed

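Total RNA longer than 200 nt was measured in 2 libraries started from 10 ng of RNA with ERCC spike-ins, per the labels. The authors deposited gene and transcript tables on mm10 with GENCODE M4, derived from alignments to the transcriptome, per the file headers and the notes beside them. The aligner, quantifier and strandedness were not given in the sources used here. Expected counts deposited by the authors divide shared fragments among genes. The deposited TPM values, spike-ins included, and the deposited FPKM values are scaled by length. The percent of each gene in a transcript was also deposited by the authors.

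Entries that name no gene (0.000107% and 0.000114% of counts) were left out. Identifiers were matched to GENCODE M21 without version (42462 of 43346), and all 9 members matched. Spike-ins took 3.41% and 4.36% of counts.

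Expected counts were rounded, genes with 10 or more summed counts kept, and libraries scaled by TMM (edgeR 4.0.16, R 4.3.3). Each gene was tested by an exact two-sided binomial test in scipy 1.17.1 and, as the alternative, by the edgeR exact test with a common dispersion (coefficient of variation 9.02%) estimated from the same 2 libraries, with Benjamini-Hochberg adjustment over all genes and a threshold of 0.05. These tests were checked on simulated counts, each with only the kind of spread it allows for. The binomial test was thus not checked on counts with a dispersion between libraries. Intervals and the floor of 3 counts cover counting error only, since amplified fragments are not independent molecules. Other settings tried were DESeq2 (1.42.0) size factors, spike-in scaling, no count filter, other pseudocounts, units and detection limits, and each library alone.

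Members and the 14 gene lists were chosen with earlier results of these data known. Some genes are shared between lists, among them Sox10, Zic1 and Bmp7, so counts of calls in different lists are not independent. Named are all members, Dlx1as and Dlx6os1, the nearest coding genes, and from each list the 3 genes of highest mean TPM and the lowest, of which some are not reported here. Dlx4os, Dlx6os2, Lhx6, Lmx1a, Alx1, Matn1, Acan, Trp63 and Pax3 were named after their values were seen. So were Hoxd3, Hoxb2, Hoxa2, Hoxb3, Rspo1 and Lmx1b. With 2 libraries, likeness of pattern across samples cannot be measured. Separate pools are labelled as replicates, and p-values measure only the difference between these libraries.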

Additional observations from a re-analysis of the deposited data

How the results depend on the processing

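The excess of Msx over each Dlx pair kept its direction under every setting tried. Over Dlx1 and Dlx2 the log2 difference was 4.02 with a pseudocount of 0.1 and 4.93 when protein-coding transcripts alone were summed, a setting chosen after seeing the data, because most Dlx1 abundance lies in retained-intron forms. Over Dlx5 and Dlx6 it was 4.38 in counts scaled to library size but not divided by length. With each library alone the differences ran from 3.84 to 3.99 (Dlx1 and Dlx2), from 4.63 to 5.21 (Dlx3 and Dlx4) and from 3.399 to 4.14 (Dlx5 and Dlx6). The number of members detected was 7 or 8 in every setting. Genes called between libraries fell from 3921 with the exact binomial test to 301 with the edgeR exact test, and members called from 6 to 2, since that test adds a dispersion. Scaling by spike-ins called 13010 genes, 326 of them higher and 12684 lower in replicate 2, and 5 members, 2 higher and 3 lower, and moved the median gene by -0.37 on the log2 scale. Under it the log2 ratios of Dlx2, Msx1 and Msx2 reversed to -0.036, -0.093 and -0.28. Relative to that median, they were 0.33, 0.28 and 0.09. Dlx4 and Dlx5 were higher in replicate 2 under all 5 settings of the comparison and passed the threshold in each. No paired analysis was possible because the libraries form 1 group. Depth limits Dlx4 and Dlx6, with 6 and 24 counts in replicate 1.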
